A study of Mus musculus with 2 samples.

Results

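Gnat2, Gnb3, Gngt2, Pde6c, Pde6h, Cnga3 and Cngb3 encode the cone forms of transducin, of its phosphodiesterase and of the cyclic nucleotide-gated channel. These 7 genes were chosen by their role, as the activation cascade of cone phototransduction, and all 7 had a row among the 17774 genes of the deposited count table. Both groups were cells labelled as cone photoreceptors, sorted from the Pde6c.GFP line, which is Pde6ccpfl1 crossed with Chrnb4.eGFP on a C57BL/6 strain, so both carried the mutation in Pde6c and an eGFP transgene driven by the Chrnb4 promoter. Retinae were taken at postnatal day 24, either untreated (uninjected) or 10 days after 1 intravitreal injection, at postnatal day 14, of 10 µM GSK-J4, an inhibitor of histone H3K27 demethylases. GFP-positive cells were sorted into plates with 1 cell per well, and RNA of each cell was counted per gene. There was 1 library and 1 plate per group, the number of animals behind each plate is not given in the sources used here, and no library of sham-injected or wild-type cones was analysed here. Column names of the GSK-J4-treated plate contain the word adult, although the labels state the same age for both groups.

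In a photoreceptor, light-activated opsin exchanges GDP for GTP on the transducin alpha subunit, which leaves the beta and gamma subunits and relieves the phosphodiesterase of its inhibitory subunit. The phosphodiesterase then hydrolyses cGMP, the cyclic nucleotide-gated channels of the outer segment close, and the cell hyperpolarises. Cones use their own genes for most of these steps, and loss of cone transducin alpha, of the cone phosphodiesterase or of either channel subunit causes achromatopsia, the loss of cone vision.

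The libraries differed in depth and in more than the cascade. After filtering, 82 untreated cells held 1113424 counts and 64 GSK-J4-treated cells held 208578, with medians of 8118 (860 to 98250) and 2336 (420 to 15371) counts per cell. Mitochondrial genes took a median of 0.952% and 0.0146% of a cell's counts, 82 ribosomal protein genes took 3.62% and 0.235% of all counts, and Actb and Gapdh had 259 and 445 counts in untreated cells but 1 count each in GSK-J4-treated cells. Of 5 cone markers outside the cascade (Arr3, Opn1sw, Opn1mw, Guca1a and Gulo, of which 4 had a row), untreated cells had a count in 82 of 82 cells, with 0.159% to 6.19% of each cell's counts. In GSK-J4-treated cells these markers had a count in 5 of 64 cells, with 0% to 6.74% of a cell's counts, and Opn1sw and Guca1a were at 0. The defining cone markers were thus present in every cell of the untreated library and absent from most cells labelled as GSK-J4-treated cones. Lists for other cell types took small shares of the summed counts of each library. Rod markers took 0.349% and 0.0206%, Müller glia 0.0857% and 0.0336%, bipolar cells 0.00772% and 0.0158%, and amacrine cells 0.00476% and 0.0125%. Ganglion cell markers took 0.00638% and 0.00767%, microglia 0.000539% and 0.00144%, retinal pigment epithelium 0.00207% and 0.00240%, and erythrocytes 0.000269% and 0%. Single untreated cells reached 7.46% for rod and 3.72% for Müller glia markers. Of the 64 GSK-J4-treated cells, 17 had a count of a rod, 18 of a Müller glia, 23 of a bipolar and 17 of an amacrine marker. Those numbers were 82, 72, 34 and 22 of 82 untreated cells. How far depth, RNA content, the plate or the treatment enters each difference given here cannot be told apart, because each plate held a single group.

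The cascade genes were counted in every untreated cell and in few GSK-J4-treated cells. Summed over the 7 genes, untreated cells had 10486 counts, or 94.2 per 10000 counts of the library (95% exact Poisson interval 92.4 to 96.0), and single cells ranged from 12.4 to 625 per 10000 with a median of 65.9. The GSK-J4-treated cells had 102 counts, or 4.89 per 10000 (3.99 to 5.94), and their median cell had 0. A count of any cascade gene was seen in 82 of 82 untreated cells and in 11 of 64 GSK-J4-treated cells (17.2%, Clopper-Pearson interval 8.90% to 28.7%). No untreated cell had counts of fewer than 2 of the genes, 37 cells had 4 of them, 23 had 5, 13 had 6 and 3 had all 7. These tallies include counts of exactly 1, at which 48 untreated cells stood for Pde6h, 34 for Gnat2 and 31 for Gnb3. Each of the 11 GSK-J4-treated cells had exactly 1 of the genes. All intervals given here cover counting error only, not the spread between cells, animals or plates.

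**Figure D1:**
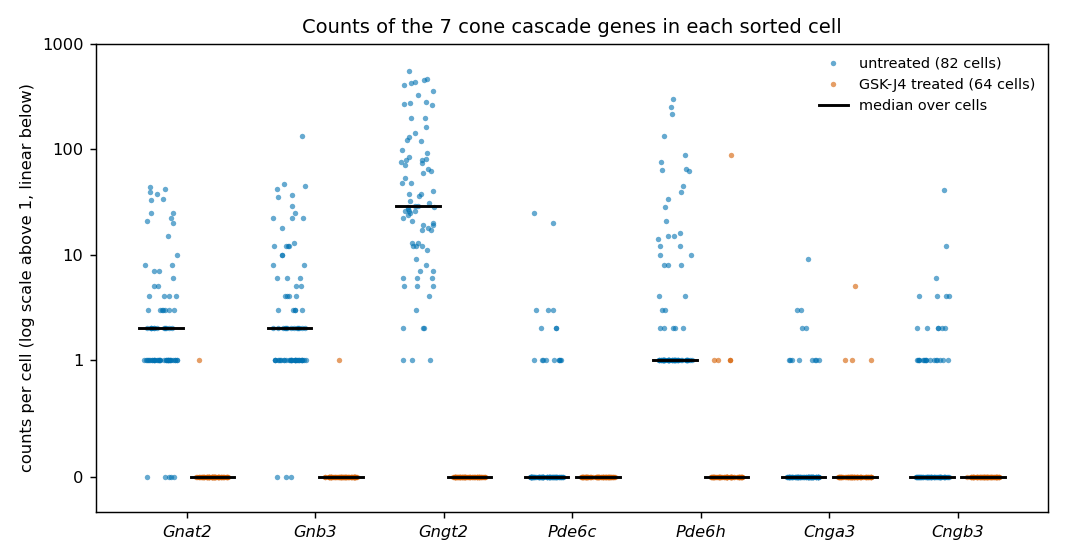
Counts of each of the 7 cascade genes (horizontal axis) in each cell (vertical axis, log scale above 1 and linear below), with blue points for the 82 untreated cells, orange points for the 64 GSK-J4-treated cells and black bars for the median over cells. Gngt2 lies above 0 in every untreated cell and at 0 in every GSK-J4-treated cell, and the lone high orange point is the cell with 88 counts of Pde6h.

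The 102 counts were spread very unevenly. The GSK-J4-treated cell in well E12, which had 2678 counts in all, held 88 of the 102 (86.3%), each of them Pde6h, and had no count of Opn1sw, Opn1mw, Arr3 or Guca1a. The other 10 cells held 14 counts (7.65 to 23.5), which is 0.680 per 10000 once that cell is left out. They were 5 counts of Cnga3 in 1 cell and 1 count each in the other 9 cells: 4 cells with Pde6h, 3 with Cnga3, 1 with Gnat2 and 1 with Gnb3. Of the 11 cells with a cascade count, Arr3 was counted in 1 cell and Opn1mw in 1 cell, each at 1 count. The cells with a cascade count had 782 to 13203 counts in all, with a median of 3631, against the median of 2336 over all 64.

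**Figure D2:**
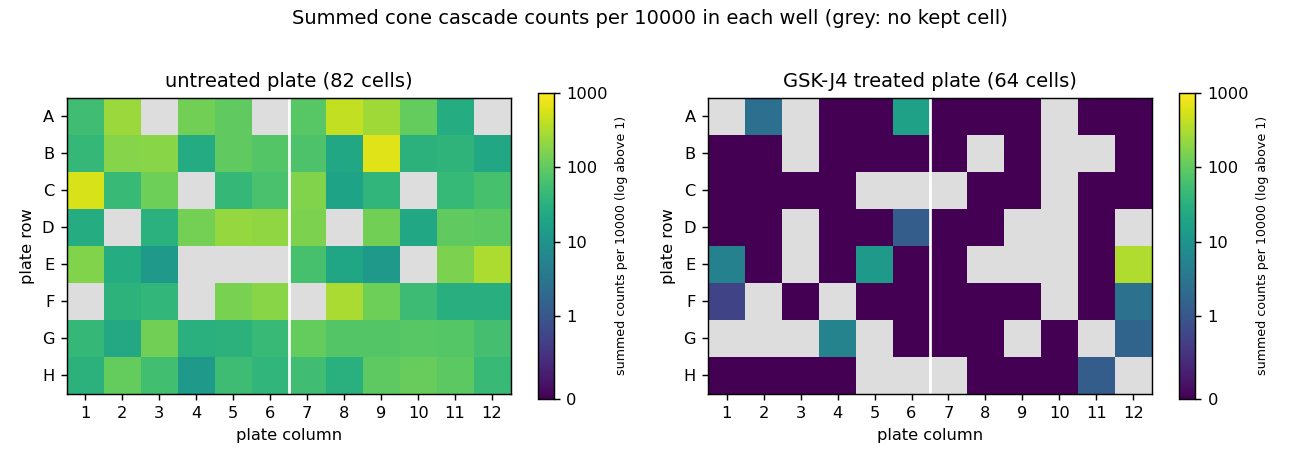
Summed counts of the 7 cascade genes per 10000 counts in each well of the untreated plate (left) and the GSK-J4-treated plate (right), by plate row and column, with colour on a log scale above 1, grey for wells with no kept cell and a white line between columns 6 and 7. Untreated wells run from 12.4 to 625, whereas 53 GSK-J4-treated wells are at 0 and well E12 is at 329.

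The comparison between the libraries asks which cascade transcripts differed in level after GSK-J4. It is given as a log-fold, the natural log of the mean over cells of counts per 10000 plus 1, GSK-J4-treated minus untreated. With 1 library per group no test was possible, and genes were counted as lower or higher past a log-fold of 0.3. Of the 7 genes, 6 lay below -0.3, none above 0.3 and 1, Cnga3, between these limits, with a median of -1.39, the value of Pde6h. That median was -0.80 in plate columns 7 to 12 alone and -2.40 with a pseudocount of 0.1. As background, 7682 genes were counted in 10% or more of the untreated or of the GSK-J4-treated cells, and 24% of them lay below -0.3 and 20.4% above 0.3, with a median of -0.005. All 7 cascade genes reached that 10% in untreated cells and none did in GSK-J4-treated cells. Among the 6783 genes that reached it in untreated cells, 27.2% lay below -0.3. Gngt2, Pde6c and Cngb3 had no GSK-J4-treated count, 3 of 7, and 13.9% of those 6783 genes had none. Against the 23 untreated cells whose depth fell between the quartiles of the GSK-J4-treated cells (969.8 to 4105 counts), 4 of the 7 genes lay below -0.3, with Pde6c at -0.20 and Cngb3 at 0.00.

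Transducin alpha, the subunit that carries GTP to the phosphodiesterase, is encoded by Gnat2 (ENSMUSG00000009108.15, GRCm38 chr3:108092789-108101432, plus strand). Its count per untreated cell ran from 0 to 44 with a median of 2, 77 of 82 cells had a count, and the total was 509. The GSK-J4-treated cells had 1 count of Gnat2, in 1 of 64 cells. The groups overlapped at 0 and at 1 count, since 34 untreated cells held exactly 1 and 5 held none. Its level was 95.4 times as high in untreated cells (conditional exact interval 17 to 3773), and its log-fold was -1.80 (counting interval -1.95 to -1.45).

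A short stretch just before the RefSeq start of Gnat2 is shown because it holds the only match to the core motif of CRX, a homeodomain factor of photoreceptors, in the windows searched for these genes. RefSeq promoter windows matched 3 of the 7 genes (Gnat2, Pde6h and Cnga3, the last with 2 starts), and the 250 bases before each of the 4 starts were searched on both strands. The letters of the CRX core were TAATCC. No matches overlapped each other. The stretch is at chr3:108093035-108093064 in GRCm38.p6, plus strand, with the reverse complement of the motif in capitals, and lies within an exon of another Gnat2 transcript in the GENCODE annotation. Pde6h, shown because it took nearly all GSK-J4-treated cascade counts, is given over chr6:136954273-136954522, plus strand, and holds neither motif.
Gnat2: gggacaatccccGGATTAggaaggagctct
Pde6h: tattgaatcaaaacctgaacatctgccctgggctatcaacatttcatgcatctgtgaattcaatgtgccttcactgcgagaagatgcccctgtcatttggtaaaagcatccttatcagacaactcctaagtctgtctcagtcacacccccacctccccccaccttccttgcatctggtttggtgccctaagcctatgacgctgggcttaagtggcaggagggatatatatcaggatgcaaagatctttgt
The Gnat2 match began 19 bases before the start. Of 32851 RefSeq windows of the same length, 6.25% held the CRX core and 12.4% the TATA box, the latter including 1 of the 2 Cnga3 windows, where it began 122 bases before the start. The TATA box was searched as TATAAA. A match is a description of these letters and not a shown binding site.

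Gnb3 (ENSMUSG00000023439.11, chr6:124834240-124840275, minus strand) encodes the transducin beta subunit of cones. It ran from 0 to 134 counts per untreated cell with a median of 2 and a total of 691, in 79 of 82 cells. In GSK-J4-treated cells it had 1 count, in a different cell from that of Gnat2. Again the groups overlapped at 0 and 1, with 31 untreated cells at exactly 1 count. The level was 129 times as high in untreated cells (23.2 to 5120.1) and the log-fold was -2.12 (-2.23 to -1.90).

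Gngt2 (ENSMUSG00000038811.13, chr11:95837216-95845734, plus strand), the cone transducin gamma subunit, which anchors the beta subunit to the membrane, was the main transcript of the cascade. Untreated cells held 1 to 551 counts with a median of 29.0 and a total of 7459, while no GSK-J4-treated cell held any, so the groups did not overlap. Among all genes kept, 21 of 15947 had a count in every untreated cell. Of the 6783 genes that reached 10% of untreated cells, 13.9% had no GSK-J4-treated count. The share of genes that met both was not counted. The Gngt2 rate of 67.0 per 10000 (65.5 to 68.5) was the 12th highest of all genes in the untreated library. At that rate 1397 counts would fall in a library of the GSK-J4-treated total. Set against a floor of 3 counts over that library, Gngt2 was at least 466-fold lower after GSK-J4, with a log-fold of -4.15. Folds given as at least rest on this floor and on the untreated count as measured, and are not 95% limits, since the exact Poisson interval of a count of 0 reaches 3.69 counts. The span of Gngt2 overlaps that of Abi3 on the other strand, and whether their exons overlap was not examined. Strand was not stated in the counting, so reads in the shared stretch may not be told apart.

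The share of cells with a count differed within transducin once low counts were set aside. At least 2 counts were found in 96.3% of untreated cells for Gngt2, in 58.5% for Gnb3 and in 52.4% for Gnat2. Each cell was then thinned to 867 counts, which left 81 untreated and 50 GSK-J4-treated cells, as 1 and 14 were shallower. In untreated cells a count remained in 92.6% of them for Gngt2 (84.6% to 97.2%), in 37.0% for Gnat2 (26.6% to 48.5%) and in 30.9% for Gnb3 (21.1% to 42.1%). In thinned GSK-J4-treated cells Gnat2 had a count in 1 cell, and Gnb3 and Gngt2 in none. All 3 transducin genes had a count in 75 untreated cells, all 3 had at least 2 counts in 32, and no GSK-J4-treated cell had more than 1 of them.

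Pde6c (ENSMUSG00000024992.13, chr19:38132781-38183958, plus strand) encodes the catalytic subunit of the cone phosphodiesterase and is the mutated gene of the line, so both groups carried the mutant gene. It had 69 counts in 17 of 82 untreated cells (20.7%, 12.6% to 31.1%), with a median of 0 and a maximum of 25, and none in GSK-J4-treated cells. Most untreated cells were thus at 0 as well, and 3 cells held 48 of the 69 counts (69.6%). Its rate was 0.620 per 10000 (0.482 to 0.784), at which 12.9 counts would fall in a library of the GSK-J4-treated total. By the same floor of 3 counts, which is no 95% limit, it was at least 4.31-fold lower after GSK-J4, with a log-fold of -0.54 (-0.65 to -0.28). In plate columns 1 to 6 alone the log-fold was -0.15, within the limit of 0.3.

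Pde6h (ENSMUSG00000064330.9, chr6:136923832-136968865, plus strand) encodes the inhibitory gamma subunit, which holds the cone phosphodiesterase inactive in the dark. Every untreated cell had a count of it, from 1 to 303 with a median of 1, in total 1628. In GSK-J4-treated cells it had 92 counts in 5 cells, 88 of them in the cell of well E12. The rate was 14.6 per 10000 (13.9 to 15.3) in untreated cells and 4.41 (3.56 to 5.41) in GSK-J4-treated cells, a ratio of 3.31 (2.69 to 4.14), and the log-fold was -1.39. Without the cell of well E12 the GSK-J4-treated count was 4 (1.09 to 10.2), the ratio was 75.3 and the log-fold was -2.95. Pde6h overlaps Arhgdib on the other strand.

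The counts of Pde6h in untreated cells fell into a large set at exactly 1 and a smaller set far above it. Exactly 1 count was held by 48 of 82 cells, at depths from 860 to 41661, whereas 22 cells held at least 10 counts and together 1532 of the 1628. The cells at 1 were split as 23 in plate columns 1 to 6 and 25 in columns 7 to 12. Of the 15947 genes kept, 21 had a count in every untreated cell, and 3 of these were at exactly 1 in over 50% of the cells: Pde6h, Opn1mw (53 cells), which encodes the M-opsin, and mt-Cytb (51 cells), which encodes mitochondrial cytochrome b. These 3 genes were singled out after their values were seen. All 3 were at 0 in most GSK-J4-treated cells, with a count in 5, 2 and 4 of 64. By contrast Gngt2, S-opsin (Opn1sw) and Guca1a were at exactly 1 in 3, 1 and 1 untreated cells. Gnat2, Gnb3 and Arr3, each at 0 in a few untreated cells, also had many cells at exactly 1. These were 34 cells for Gnat2 (depths 860 to 24214), 31 for Gnb3 (874 to 26252) and 24 for Arr3. The cause of the counts of 1 was not tested. For Pde6h, Gnat2 and Gnb3 a share of cells with at least 1 count therefore says less than the share with at least 2. That share was 41.5% (30.7% to 52.9%) for Pde6h, 52.4% for Gnat2 and 58.5% for Gnb3. With every count of exactly 1 set to 0, the log-folds kept their sign and the same 6 genes lay below -0.3.

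**Figure D3:**
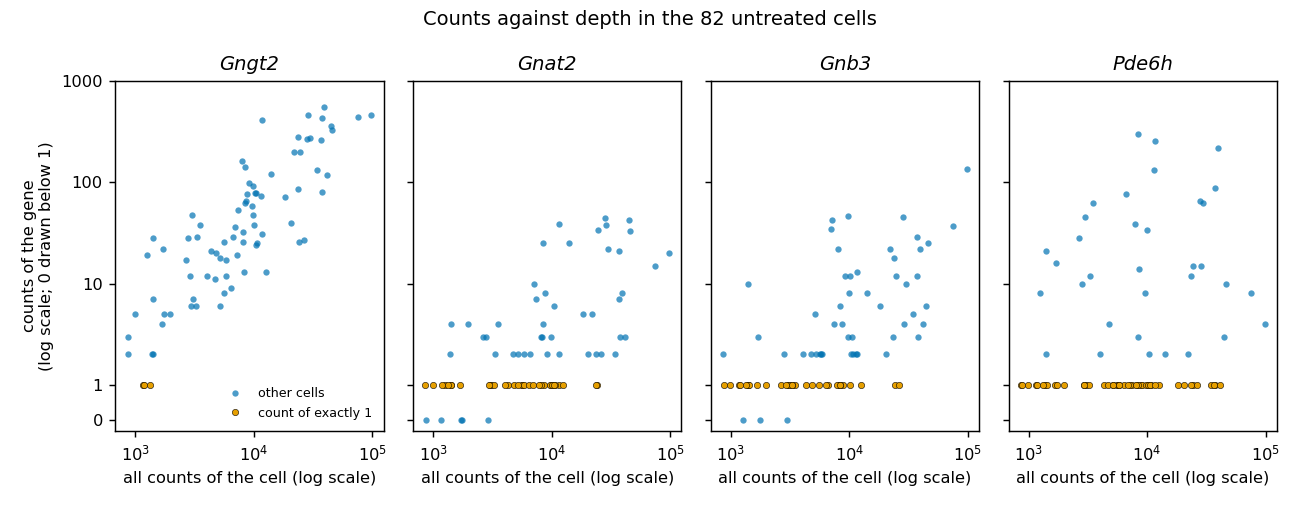
Counts of 4 cascade genes (vertical axis, log scale, 0 drawn below 1) against all counts of the cell (horizontal axis, log scale) in the 82 untreated cells, with cells at exactly 1 count in yellow. Gngt2 counts lie higher in deeper cells and 3 cells are at 1, whereas for Pde6h 48 cells lie on the line at 1 from 860 to 41661 counts.

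Cnga3 (ENSMUSG00000026114.14, chr1:37214434-37263384, plus strand) encodes the pore-forming subunit of the cone channel and was the least abundant of the 7 genes in untreated cells. It had 27 counts there, in 13 of 82 cells, and 8 counts in 4 of 64 GSK-J4-treated cells, with a maximum of 9 and of 5 in a cell. The groups overlapped throughout. The rates were 0.242 (0.160 to 0.353) and 0.384 (0.166 to 0.756) per 10000, a ratio of untreated to GSK-J4-treated of 0.632 whose interval of 0.279 to 1.61 includes 1, and the log-fold was -0.11. A difference was thus not detectable at this depth, and these counts leave room for a level in GSK-J4-treated cells from below to well above that of untreated cells. In plate columns 7 to 12 alone the log-fold was -0.45, past the limit. With a pseudocount of 0.1 in place of 1 it rounded to -0.30 but lay just past the limit, as all 7 genes then counted as lower.

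Cngb3 (ENSMUSG00000056494.7, chr4:19280850-19510623, plus strand) encodes the modulatory subunit of the same channel. It had 103 counts in 29 of 82 untreated cells (35.4%, 25.1% to 46.7%), with a maximum of 41, and none in GSK-J4-treated cells. As for Pde6c, more than 50% of the untreated cells were at 0, so the groups overlapped there. Its rate of 0.925 per 10000 (0.755 to 1.12) would give 19.3 counts in a library of the GSK-J4-treated total, and by the same floor, which is no 95% limit, it was at least 6.43-fold lower, with a log-fold of -0.70. No count of Cngb3 was present in the 23 untreated cells of matched depth. Both channel subunits were counted together in 8 untreated cells, either was counted in 34, and no GSK-J4-treated cell had both. Cngb3 overlaps the processed pseudogene Gm11877 on the same strand.

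**Figure D4:**
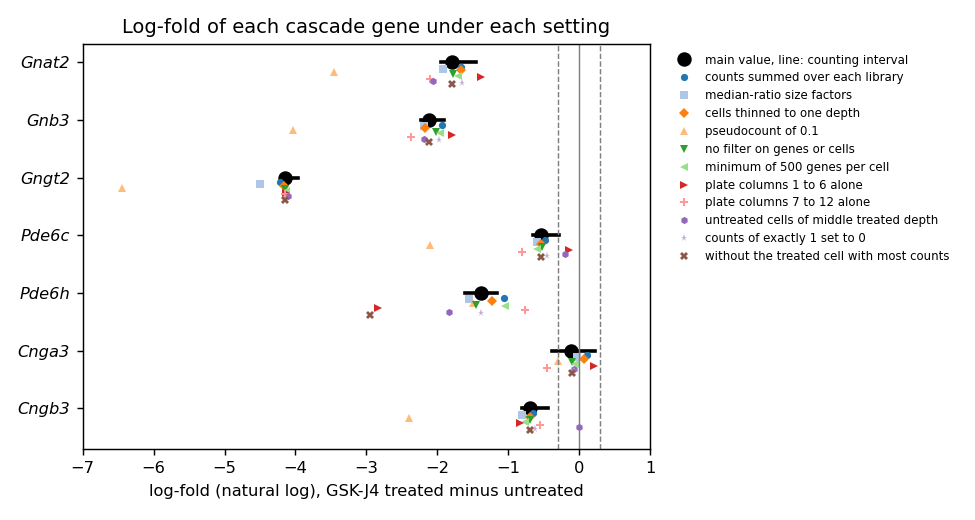
Log-fold (natural log, horizontal axis) of each cascade gene, GSK-J4-treated minus untreated, with black points for the value given in the text, black lines for its 95% counting interval, coloured symbols for 11 other settings and dashed lines at -0.3 and 0.3. Gnat2, Gnb3, Gngt2 and Pde6h lie below -0.3 under every setting, whereas Pde6c and Cngb3 reach -0.20 and 0.00 against depth-matched untreated cells and Cnga3 lies on both sides of 0.

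Per kilobase of exon, taken over all annotated transcripts of a gene, the level in untreated cells ran in the order Gngt2 (35.7 counts per 10000 per kilobase), Gnb3 (2.36), Pde6h (1.86), Gnat2 (1.53), Pde6c (0.209), Cngb3 (0.196) and Cnga3 (0.0613). The intervals of Pde6c (0.162 to 0.264) and Cngb3 (0.160 to 0.238) overlapped, so these neighbours did not differ beyond counting error, while those of the other neighbours did not overlap. Reads came from transcript ends, which need not scale with length, and without the division Pde6h stood above Gnb3 and Cngb3 above Pde6c. Gngt2 made up 71.1% of the cascade counts and Pde6h 15.5%, and Pde6c, Cnga3 and Cngb3 together had 199 counts (1.90%). Gngt2 was the highest of the 7 genes in 72 of 82 untreated cells and Pde6h in 5, and the share of Gngt2 in a cell's cascade counts ran from 19.6% to 96.3% with a median of 73.6%.

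Beside the rod gene of the same function, cone forms stood higher per kilobase in untreated cells for 5 of the 7 genes. Gngt2 was 10.8 times as high as Gngt1 (10.2 to 11.5), Gnb3 was 7.18 times as high as Gnb1, which is also expressed in many other cell types (6.03 to 8.60), Cngb3 was 3.05 times as high as Cngb1 (2.22 to 4.22), and Gnat2 was 2.89 times as high as Gnat1 (2.43 to 3.45). Pde6c exceeded both rod catalytic subunits, 2.05 times for Pde6a (1.42 to 3) and 4.87 times for Pde6b (3.02 to 8.10). Per kilobase the inhibitory subunit went the other way, Pde6h being at 0.459 of Pde6g (0.424 to 0.496). That direction rests on the division, by 7846 exon bases for Pde6h and 2317 for Pde6g. Without it Pde6h was the higher, with 1628 counts in untreated cells against 1048 for Pde6g. The pairs with a higher cone form kept that direction without the division. Cnga3 at 0.881 of Cnga1 had an interval (0.529 to 1.44) that includes 1. That closeness rests on the division too, by 3957 exon bases for Cnga3 and 6327 for Cnga1. Without it Cnga3 was the lower, with 27 counts in untreated cells against 49 for Cnga1. Pde6g was counted in 81 of 82 untreated cells. The summed rod markers took between 0.0343% and 7.46% of the counts of an untreated cell, and their part in these ratios was not tested.

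The cells differed among themselves by plate side as well as by gene. Plate columns 1 to 6 held 39 untreated cells and columns 7 to 12 held 43. Gnat2 was at 2.67 per 10000 (2.25 to 3.14) in the former and 6.41 (5.76 to 7.10) in the latter, a ratio of 2.40 (1.97 to 2.93) that stayed at 2.22 without the cell with most counts. Gnb3 was 1.72 times as high in columns 7 to 12 (1.47 to 2.02), and 1.45 times without its top cell. In thinned cells the ratio was lower for Gnat2, at 1.66, and higher for Gnb3, at 2.08. Gngt2, at 69.3 and 64.8 per 10000, had a ratio of 0.934 (0.893 to 0.978), and of 1.01 without its top cell. The ratio of Pde6c was 1.70 from summed counts and 7.83 as a mean over cells. The ratios of 1.70 for Pde6c, 0.737 for Pde6h and 0.638 for Cngb3 crossed 1 when the cell with most counts was left out, and the interval for Cnga3 (0.958 to 6.05) includes 1. The top cell held 39.8% of the Cngb3 counts, 36.2% of the Pde6c counts, 33.3% of the Cnga3 counts, 19.4% of the Gnb3 counts and 18.6% of the Pde6h counts, against 8.64% for Gnat2 and 7.39% for Gngt2. The top 3 cells held 47.5% of the Pde6h counts.

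Across the 82 untreated cells the measured rates of the cascade genes had low rank correlations. Spearman's rho between their rates had a median of 0.11 over the 21 pairs and ran from -0.20 to 0.45, as a description of cells that share 1 plate, its depth range and its animals. Many of these values rest on ties: Pde6c, Cnga3 and Cngb3 were at 0 in 65, 69 and 53 cells. Pde6h, Gnat2 and Gnb3 were at exactly 1 count in 48, 34 and 31 cells. A low rho between such genes therefore does not show that their levels vary apart, and the part of these ties was not tested. In thinned cells Gnat2 with Pde6h went from 0.36 to 0.17 and Gnb3 with Pde6h from 0.31 to 0.07. The highest pair was Gngt2 with Pde6h at 0.45, with 0.43 in columns 1 to 6, 0.49 in columns 7 to 12 and 0.53 in thinned cells. Gnat2 with Gnb3 stood at 0.26 overall but at -0.10 in columns 1 to 6 and 0.49 in columns 7 to 12. The channel subunits Cnga3 and Cngb3 stood at 0.23, and at -0.03 in thinned cells. The summed cascade rate had a rho of 0.04 with depth and of 0.91 with Gngt2.

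Of 2638 other genes counted in 25% or more of the untreated cells, those whose rate was most like the summed cascade rate were Tmsb10 (rho 0.59), Cox8a (0.50), Tma7 (0.48), Guca1a (0.48) and Rpl41 (0.45). Tmsb10 encodes thymosin beta 10, which binds actin, Cox8a a subunit of cytochrome c oxidase, and Rpl41 a ribosomal protein. Guca1a, which encodes a guanylate cyclase activator, was the only one of the 5 that belongs to phototransduction, with 0.63 in columns 1 to 6 and 0.33 in columns 7 to 12. Tmsb10 kept 0.61 and 0.54 on the sides and 0.56 in thinned cells. In thinned cells Cox8a stood at 0.48, whereas Guca1a fell to 0.33, Tma7 to 0.28 and Rpl41 to 0.26. In GSK-J4-treated cells Tmsb10, Guca1a and Rpl41 had no count, Tma7 had 1 and Cox8a had 32.

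In the rest of the phototransduction pathway, the genes that passed the 10% filter were lower or within the limit, with none above 0.3. Slc24a1, a shut-off and recovery gene that failed the filter, had a log-fold of 0.42. It had 6 counts in 2 untreated cells and 7 in 4 GSK-J4-treated cells, a ratio of 0.161 (0.0446 to 0.558). Both cone opsins lay below -0.3. Opn1sw, the S-opsin, had 6935 counts in 80 untreated cells and none after GSK-J4 (at least 433-fold lower by the floor of 3 counts), and Opn1mw had 4831 counts against 304, the latter in 2 of 64 cells. Of these 2 cells, 1 held 1 count of Opn1mw, so nearly all of the 304 lay in the other, which had no cascade count. Of the rod counterparts 4 of 8 lay below -0.3, with a median of -0.56. The share below -0.3 was 24% over all genes tested and 27.2% over those that reached 10% in untreated cells. Pde6g (1048 counts against 1) and Gngt1 (1293 against 0) had the lowest log-folds among them, -2.91 and -2.50. Pde6a and Cngb1, the rod catalytic and channel genes with 53 and 67 untreated counts, had 16 and 11 counts after GSK-J4 and ratios of 0.621 (0.349 to 1.16) and 1.14 (0.599 to 2.39), both with intervals that include 1. Pde6b, the other catalytic gene, had 24 counts against 2, a ratio of 2.25 (0.558 to 19.6), and Cnga1, the other channel gene, had 49 against 1, a ratio of 9.18 (1.57 to 369.9).

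Of 12 shut-off and recovery genes, 10 passed the filter, 5 lay below -0.3, and the median was -0.30. The shares to set beside this are the same 24% of all genes tested and 27.2% of those that reached 10% in untreated cells. Guca1a had 5193 counts against 0, a log-fold of -3.93. Cone arrestin (Arr3), which quenches the activated opsin, had 1341 counts in 80 cells against 39 in 3 cells, a log-fold of -1.89. Recoverin (Rcvrn), a calcium-dependent inhibitor of the opsin kinase, had 407 against 1, a log-fold of -1.70. The opsin kinase Grk1 had 45 counts against 24, and its rate per library was lower in untreated cells (ratio 0.351, 0.209 to 0.603) although its log-fold over cells was -0.47, so the direction depends on whether cells or counts are averaged. The guanylate cyclase Gucy2e, which restores cGMP, had 73 counts against 26, with a ratio of 0.526 (0.332 to 0.858) and a log-fold of -0.09. Of the 6 assembly and trafficking genes, 5 passed and all 5 lay below -0.3, against these 24% and 27.2%, with a median of -0.86. They were Prcd (1756 counts against 0), Pde6d (173 against 1), which carries prenylated subunits, Unc119 (237 against 15), which carries transducin alpha, Aipl1 (79 against 2), a chaperone of the phosphodiesterase, and Rd3 (170 against 19), which regulates guanylate cyclase.

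**Figure D5:**
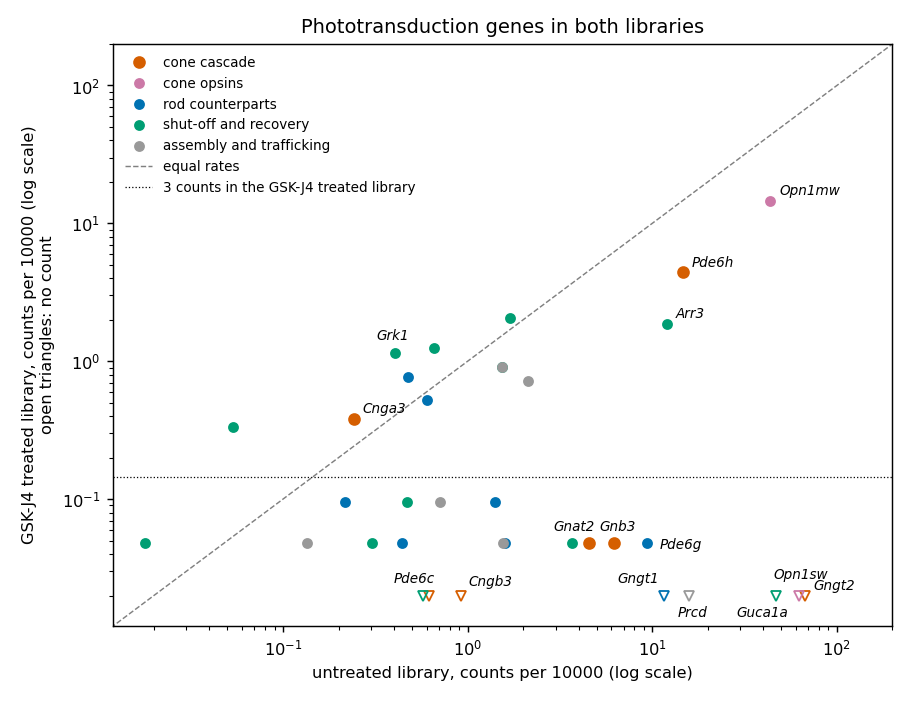
Counts per 10000 of each phototransduction gene in the untreated library (horizontal axis) and the GSK-J4-treated library (vertical axis), both on log scales, coloured by list, with open triangles for genes with no GSK-J4-treated count, a dashed line for equal rates and a dotted line for 3 counts. Gngt2 lies furthest right among the genes without a count at 67.0 per 10000, while Cnga3 lies above the line of equal rates.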

How the data were processed

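RNA of single GFP-positive cells, labelled as cones, was read from both transcript ends with well barcodes and unique molecular identifiers. The authors aligned the reads with the CLC Genomics Workbench, removed PCR duplicates, counted per gene with featureCounts and summed the counts of both ends. They deposited whole-number counts per gene and cell without normalization. The genome is named as GRCh38 Mus-Musculus, a human build name, so coordinates here are from GENCODE vM21 on GRCm38.

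Following the methods, genes counted in under 3 cells and cells with under 200 genes or over 5% mitochondrial counts were left out, which kept 15947 of 17774 genes and 146 of 151 cells (82 of 85 untreated, 64 of 66 GSK-J4-treated). The study states more GSK-J4-treated cells than there are columns. The batch correction of the methods was not applied, since each group was 1 plate, and 54 well positions occur on both plates. Doublets were not called, as 1 cell was sorted per well. Genes named were the 7 members, 4 fixed lists of the pathway and the 5 genes most like the cascade. Members and lists were chosen with earlier results of these data known. Intervals are exact Poisson for counts, Clopper-Pearson for shares and conditional exact for ratios, at 95%. With 1 library per group there is no test. Python 3.11.15, numpy 2.4.6, pandas 2.3.3, scipy 1.17.1 and matplotlib 3.10.9 were used, and the scripts were tested on simulated data. Promoter sequences are from RefSeq (GRCm38.p6).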

Additional observations from a re-analysis of the deposited data

How the results depend on the processing

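The count of cascade genes below -0.3 was 6, and 4 to 7 under the 11 other settings. The median log-fold of the 7 genes, -1.39, was -1.06 with counts summed over each library, -1.05 with a minimum of 500 genes per cell, -0.80 in plate columns 7 to 12, -1.83 against the 23 untreated cells of matched depth, -2.40 with a pseudocount of 0.1 and -1.80 without the GSK-J4-treated cell with most cascade counts. Median-ratio size factors moved the median of all genes to -0.14, and that of the 7 genes then lay at -1.42 relative to it, against -1.38 under the main scaling. Of all genes past 0.3, 54% were lower under the main scaling, 80.7% under median-ratio size factors, 43.4% against cells of matched depth and 71.9% with counts of exactly 1 set to 0. The untreated cascade rate of 94.2 per 10000 was 103 as a mean over cells, 104 in thinned cells and 96.0 with no filter. The GSK-J4-treated rate of 4.89 was 7.15 in thinned cells and 0.680 without the cell of well E12. Ratios of plate columns 7 to 12 over 1 to 6 that crossed 1 were those of Gngt2 (1.01 as a mean over cells, 1.20 in thinned cells and 1.01 without its top cell), Pde6c (0.743), Pde6h (1.08) and Cngb3 (1.85), these 3 without their top cell, and Cnga3 (0 in thinned cells, where 1 count was left). That of Pde6c was 7.83 as a mean over cells. The cause of these shifts was not tested. No paired analysis was possible because each group was 1 library. At a GSK-J4-treated depth of 208578 counts, 3 counts correspond to 0.144 per 10000, which limits what can be said of Pde6c, Cnga3 and Cngb3. The settings that set counts of 1 to 0 or leave out a top cell were chosen after seeing the data.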

Other observations

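The 3 untreated cells left out for over 5% mitochondrial counts had 403 cascade counts, or 217 per 10000, against 94.2 in the 82 cells kept, of which 187 were Gngt2 and 209 Pde6h. The 2 GSK-J4-treated cells left out had 1 cascade count, of Gnb3.

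Pde6c, Pde6h, Cnga3 and Gnb3 had higher rates from summed counts in the shallower untreated cells, but not all of them after thinning to equal depth. Among the 41 cells below the median depth, Pde6c was at 2.07 per 10000 (1.41 to 2.94), against 0.394 (0.279 to 0.541) in the 41 deeper cells. The shallower rate rested mainly on 1 cell, in well D09, which held 25 of the 31 Pde6c counts. Cnga3 was at 1 (0.561 to 1.65) against 0.125 (0.0643 to 0.217), Gnb3 at 10.7 (9.10 to 12.5) against 5.51 (5.05 to 6.00), and Pde6h at 23.7 (21.3 to 26.3) against 13.2 (12.5 to 14). Gngt2 went the other way, at 52.3 (48.7 to 56.1) against 69.3 (67.6 to 71.0), while the intervals of Gnat2 (3.77 to 6.06 and 4.12 to 4.98) and of Cngb3 (0.321 to 1.23 and 0.779 to 1.18) overlapped. In cells thinned to 867 counts the difference was gone for Pde6h, at 24.5 in shallower against 25.9 in deeper cells, and smaller for Gnb3, at 8.36 against 7.31. Thinned rates were 0.865 against 0.563 for Pde6c, 0.288 against 0 for Cnga3, 49.0 against 76.8 for Gngt2, 0.577 against 1.41 for Cngb3 and 7.79 against 3.38 for Gnat2. These splits were looked at after the data were seen, and a few cells hold most counts of Pde6c and Cnga3. For Cnga3, the cell of well B07 held 9 of the 15 counts in the shallower cells. The shares of cells with a count of Pde6c were 12.2% and 29.3%, higher in the deeper cells.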
